A study of Mus musculus with 6 samples.

Results

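The 10 genes described here belong to the Notch pathway and were followed in cultured fibroadipogenic progenitors (FAPs), the mesenchymal progenitors of skeletal muscle, with and without etoposide-induced senescence. They are the receptors Notch1, Notch2, Notch3 and Notch4, the ligands Jag1 and Dll1, and the transcriptional repressors Hes1, Hey1, Hey2 and Heyl. They were picked out by gene symbol. All 10 had a line in the table of 16894 genes. A filter on low values (0.5 CPM in at least 3 libraries) left 14776 genes for testing, 9 of the 10 among them, and Dll1 was left out.

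Notch receptors are single-pass membrane proteins that are activated by ligands on a neighboring cell. Binding of a Jagged or Delta-like ligand exposes the receptor to cleavage by ADAM proteases and then by γ-secretase, and the released intracellular domain enters the nucleus, where it joins the DNA-binding protein RBPJ and a Mastermind coactivator. HES and HEY genes are the best-known direct targets of this complex, and their products are basic helix-loop-helix repressors. In skeletal muscle the pathway is best known for keeping satellite cells quiescent, and NOTCH3 is characteristic of mural cells of blood vessels.

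The cells came from quadriceps, gastrocnemius and tibialis anterior muscles of young C57BL/6 mice, 3 to 6 months old, of both sexes, and were sorted magnetically as CD45-/CD31-/α7-integrin-/SCA-1+. Senescent FAPs had received 20 μM of etoposide, a topoisomerase poison that breaks DNA, for 48 h and were then kept in normal medium for 5 days. Control FAPs are labelled non-senescent, with no vehicle named, and the culture medium of both held 20% serum and 10 ng/mL of bFGF at 3% oxygen. Each group had 3 libraries with replicate numbers 1 to 3, and the number of mice behind each library is not given in the sources used here, so p-values measure the spread between these libraries.

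Reads on genes ranged from 41412179 to 59912520 per library. Values are CPM, read counts scaled to edgeR's effective library size, and a single read was worth 0.0167 to 0.0225 CPM. All 10 FAP markers had a line in the table, and their sum was 16907 to 35434 CPM in control and 10667 to 14998 CPM in senescent libraries, without overlap. Most of it was collagen, with means of 15545 and 3116 CPM of Col1a1 and 10041 and 6471 CPM of Col3a1 in control and senescent FAPs, and Col1a1 fell by 2.29 on the log2 scale (limma adjusted p = 0.00150). The defining markers Pdgfra, Ly6a and Cd34 had means of 192, 372 and 22.5 CPM in control and 218, 625 and 70.1 CPM in senescent FAPs. Of the markers of other cells that use Notch signaling, 7 of 10 endothelial genes had a line in the table, and their sum was 35.0 to 60.4 CPM in control and 38.5 to 43.2 CPM in senescent libraries, while Tie1, Emcn and Cldn5 had none. For mural cells 7 of 8 genes had a line, with sums of 1234 to 1415 CPM in control and 1048 to 1087 CPM in senescent libraries, most of it Pdgfrb, which FAPs also express. For myogenic cells 2 of 8 genes had a line (14.3 to 19.3 and 23.4 to 30.2 CPM), and Pax7, Myf5 and Myod1 had none. Itga7, the gene of α7-integrin, had means of 11.1 CPM in control and 20.2 CPM in senescent FAPs (limma adjusted p = 0.00771). Des had 6.07 and 7.36 CPM (limma adjusted p = 0.415). For leukocytes 6 of 9 had a line (10.9 to 13.9 and 27.0 to 32.9 CPM) and Ptprc, Adgre1 and Cd52 had none. Control and senescent means were 1.98 and 11.4 CPM for Cd53, 1.77 and 6.06 for Lyz2, and 1.47 and 4.81 for Cd68. These genes were higher in senescent FAPs (limma adjusted p = 0.00311, 4.63e-04 and 0.00113). Itgam, at 0.0223 and 0.631 CPM, reached 0.5 CPM only in senescent libraries. Csf1r had 6.74 and 7.56 CPM (limma adjusted p = 0.343), and Laptm5 had 0.0567 and 0.456 CPM. For Schwann cells 3 of 4 had a line (3.28 to 7.34 and 8.18 to 10.6 CPM) and for tenocytes 3 of 3 (14.0 to 50.4 and 11.8 to 15.8 CPM). The part of these cells in the results was not tested. Bulk values cannot tell fewer cells of a type from less RNA per cell.

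In senescent FAPs, Notch3 rose about 3-fold while the ligand Jag1 fell to 55.8% and the target Hes1 to 72.9% of their control levels. The other 6 tested genes, Notch1, Notch2, Notch4, Hey1, Hey2 and Heyl, did not pass the test. The comparison was made in limma on the log2(CPM + 0.5) scale, and a gene was called where p, adjusted by Benjamini-Hochberg over all genes tested, was under 0.05. Thus 1 of the 9 tested genes was called higher and 2 lower. Across all genes tested 46.1% were called, 21.8% higher and 24.3% lower, and the share of the tested Notch genes that were called was 33.3%. The groups did not overlap for 5 of the 9, 3 of them higher and 2 lower in senescent FAPs, beside 57.4% of all genes tested (26.5% higher and 30.9% lower). The median log2 fold change of the 9 (senescent minus control) was 0.11, against −0.03 over all genes tested.

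**Figure D1:**
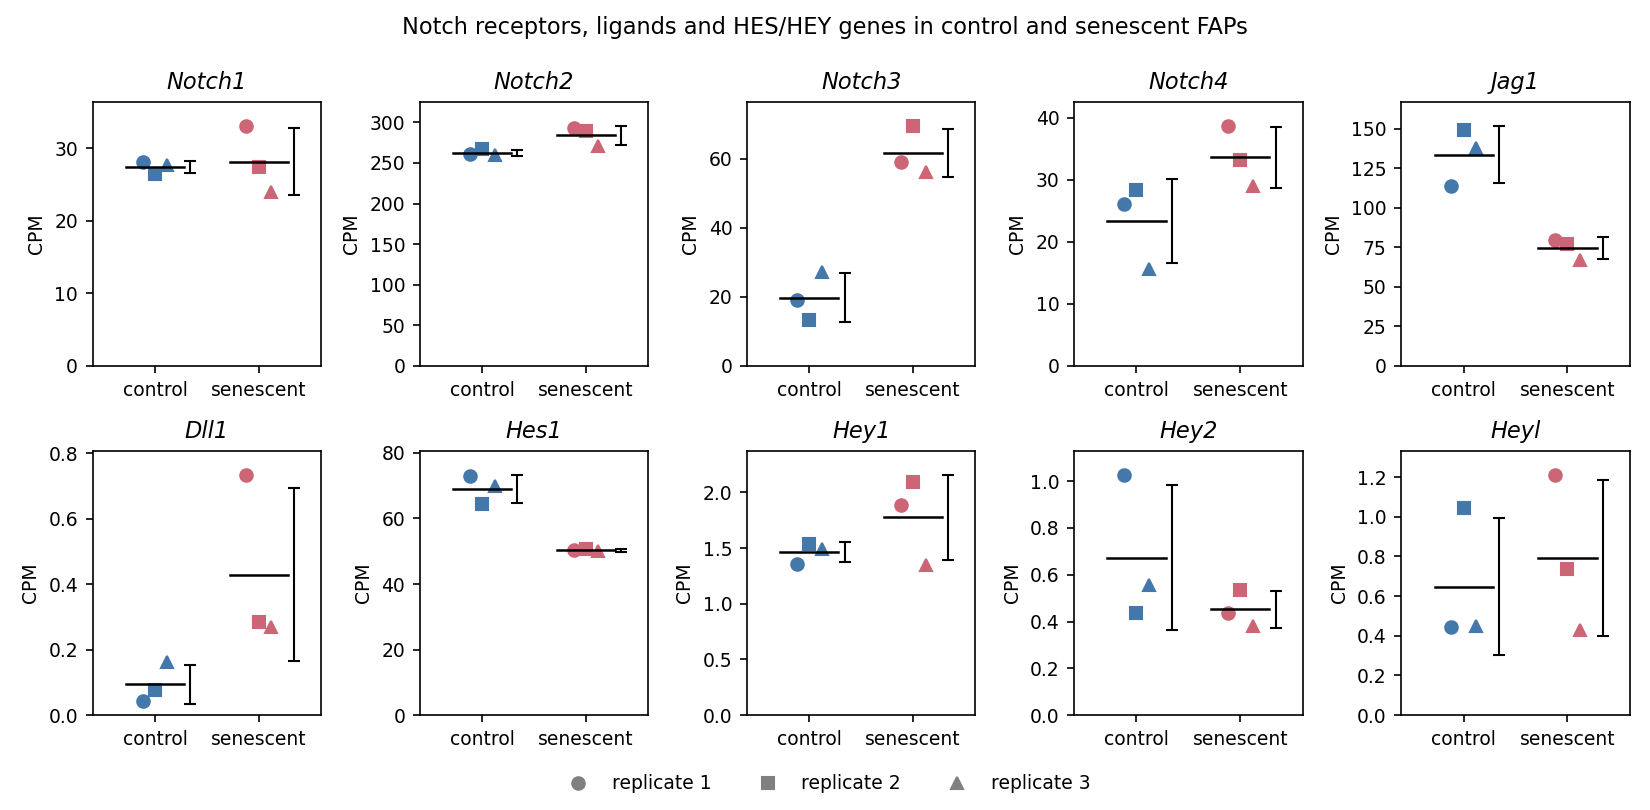
CPM of each of the 10 genes (vertical axes, each starting at 0) in the 3 control (blue) and 3 senescent (red) libraries, with marker shape for the replicate number, a bar for the mean and an error bar of 1 SD beside it. The senescent points of Notch3 lie above all control points, those of Jag1 and Hes1 lie below them, and the groups of Notch1, Hey1, Hey2 and Heyl overlap.

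Notch3 encodes the receptor best known from arterial smooth muscle cells and pericytes. It lies on the minus strand of chromosome 17 from 32120820 to 32166852 (GENCODE M21 on GRCm38). Notch3 had 19.0, 13.2 and 27.2 CPM in the control libraries 1 to 3 and 59.1, 69.6 and 56.2 CPM in the senescent libraries 1 to 3. All senescent libraries lay well above the highest control library. The means were 19.8 ± 7.03 CPM in control FAPs and 61.7 ± 7.03 CPM in senescent FAPs (SD, n = 3 each), a ratio of 3.11. The log2 fold change was 1.67 (95% interval 1.13 to 2.21, SE 0.23, limma adjusted p = 0.00132). These values rest on 693 to 1514 reads per control library and 2499 to 4160 reads per senescent library. The antisense gene Gm17276 overlaps Notch3 over 21024 bases, and it had only 0.406 CPM in control and 0.565 CPM in senescent FAPs. Among the 9 tested genes, Notch3 was the only one beyond a log2 fold change of 1 on the log2(CPM + 0.5) scale. Rgs5, a mural cell marker, had means of 1.32 CPM in control and 4.70 CPM in senescent FAPs, and Abcc9 had 5.13 and 7.64 CPM. The mural genes Cspg4 (288 and 167 CPM), Mcam (14.2 and 7.84 CPM), Myh11 (22.1 and 17.2 CPM) and Pdgfrb (1010 and 865 CPM) had lower means in senescent FAPs, Higd1b had no line, and Kcnj8 was at 0.266 and 0.101 CPM.

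Notch4, a receptor best known from endothelium, moved less and with more spread. Its control values were 26.0, 28.4 and 15.7 CPM and its senescent values 38.7, 33.3 and 28.9 CPM, in the order of the replicates. The groups did not overlap, but control replicate 2 and senescent replicate 3 were almost level. The log2 fold change of Notch4 was 0.55 (95% interval 0.04 to 1.06, SE 0.22) and missed the threshold (adjusted p = 0.0740, limma). With the replicate number as a block, a pairing that no label states, the change was the same and the adjusted p from limma was 0.0113. Without control replicate 3, the lowest library, the change was 0.29 (limma adjusted p = 0.148), and without control replicate 2 it was 0.71 (limma adjusted p = 0.0240). Of the 7 endothelial markers in the table, Tek had means of 20.1 CPM in control and 21.0 CPM in senescent FAPs, near the level of Notch4. Flt1 had a control mean of 15.2 CPM and a log2 fold change of −0.56 (limma adjusted p = 0.0533). The others, Kdr, Esam, Vwf, Pecam1 and Cdh5, had means of 0.408 to 4.05 CPM. Of these, Kdr was called lower (log2 fold change −0.74, limma adjusted p = 0.00989). Vwf and Pecam1 were called higher (0.64 and 0.89, limma adjusted p = 0.0241 and 0.00897). Esam was not called, and Cdh5 was too low to be tested. The part of endothelial RNA in the Notch4 values was not tested.

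Notch2 was the receptor with the most reads. It had 261, 267 and 260 CPM in control replicates 1 to 3 and 293, 289 and 271 CPM in senescent replicates 1 to 3. The groups were apart by a narrow margin. The log2 fold change was 0.11 (95% interval −0.04 to 0.27) and was not past the threshold (adjusted p = 0.205, limma). Notch1, the receptor most studied in T cells and in muscle stem cells, overlapped between groups, with 28.1, 26.5 and 27.7 CPM in control libraries and 33.1, 27.4 and 23.9 CPM in senescent libraries. Its log2 fold change was 0.02 (95% interval −0.26 to 0.31, limma adjusted p = 0.884). The gene 0610009E02Rik overlaps Notch1 on the opposite strand and had 1.17 and 1.12 CPM in control and senescent FAPs.

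**Figure D2:**
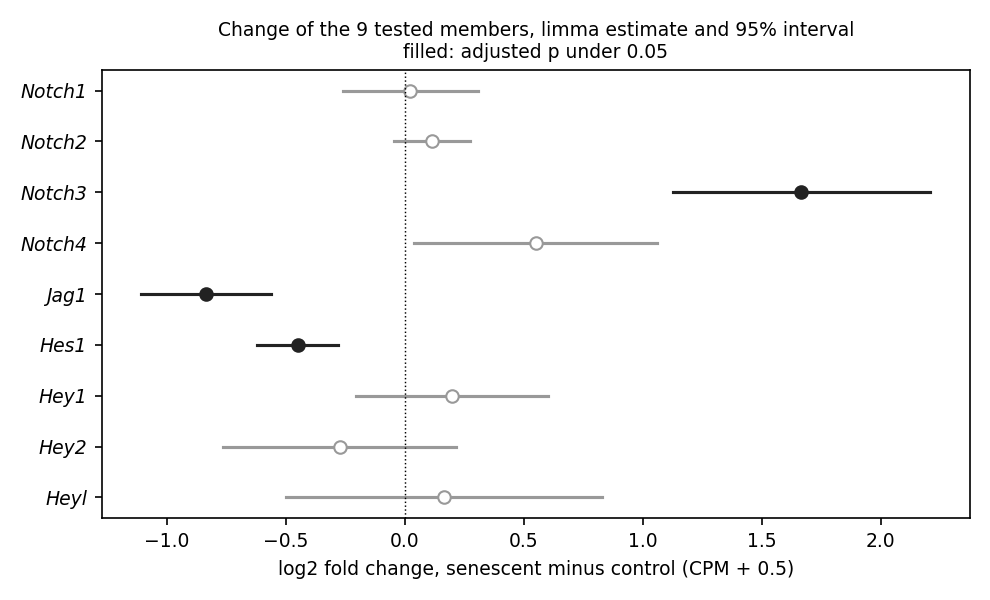
Log2 fold change of the 9 tested genes (horizontal axis, senescent minus control on log2(CPM + 0.5)), with limma's 95% interval as a line and filled points for an adjusted p under 0.05. Notch3 is at 1.67, Jag1 at −0.83 and Hes1 at −0.45, and the intervals of Notch1, Notch2, Hey1, Hey2 and Heyl include 0.

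Levels of the receptors were compared per length, as CPM per kb of exons of protein-coding transcripts. In control FAPs Notch2 stood first with 25.0 ± 0.367 CPM per kb, followed by Notch4 with 3.54 ± 1.02, Notch1 with 2.89 ± 0.0874 and Notch3 with 2.47 ± 0.877 (SD, n = 3 each). The latter 3 overlapped each other, with 1.64 to 3.39 CPM per kb in the libraries for Notch3, 2.79 to 2.96 for Notch1 and 2.38 to 4.30 for Notch4. With all annotated exons as the length, Notch1 (1.93 CPM per kb) fell behind Notch3 (2.45 CPM per kb) in that order. In senescent FAPs Notch2 was again first (27.1 ± 1.11 CPM per kb), and Notch3 was now second with 7.69 ± 0.877, ahead of Notch4 with 5.10 ± 0.745 and Notch1 with 2.97 ± 0.489 (SD, n = 3 each). Here the libraries of neighbors in the order did not overlap.

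The composition of receptor transcripts within a library does not depend on the scaling between libraries. Notch3 made up 6.96%, 4.82% and 10.1% of the summed receptor CPM per kb in the control libraries 1 to 3 and 16.5%, 19.7% and 17.7% in the senescent libraries 1 to 3. The mean share was 7.31 ± 2.68% in control and 18.0 ± 1.59% in senescent FAPs (SD, n = 3 each). Notch2 had 73.7 ± 0.845% in control and 63.3 ± 1.46% in senescent FAPs (SD, n = 3 each), and its groups did not overlap either. Its own level was not lower in senescent FAPs, with means of 25.0 CPM per kb in control and 27.1 in senescent FAPs. Notch1 had 8.53 ± 0.307% and 6.90 ± 0.803%, and Notch4, which overlapped, 10.4 ± 2.91% and 11.9 ± 1.13% (SD, n = 3 each). Two-sided exact permutation tests gave p = 0.1 for Notch1, Notch2 and Notch3, the smallest that 3 libraries against 3 allow, and p = 0.6 for Notch4.

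**Figure D3:**
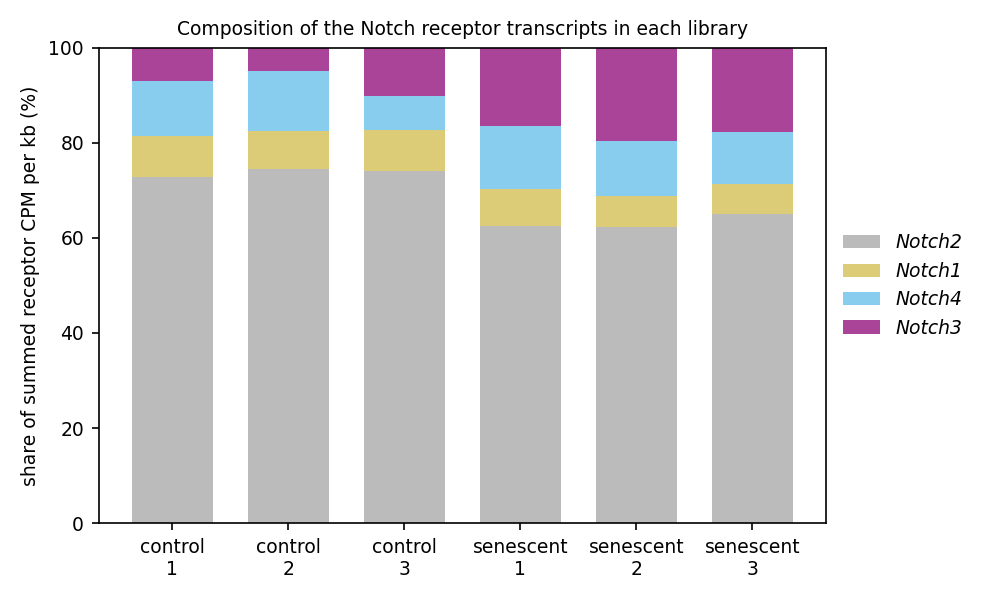
Share of each receptor in the summed receptor CPM per kb (vertical axis, %) in each of the 6 libraries. Notch3 (purple, top) takes 4.82% to 10.1% of the bars of control libraries and 16.5% to 19.7% of those of senescent libraries, and Notch2 (grey) remains the largest part of every bar.

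Jag1, a ligand of the Jagged class, was the main canonical ligand of these cells. It lies on the minus strand of chromosome 2 from 137081456 to 137116644. Jag1 had 114, 149 and 138 CPM in the control libraries 1 to 3 and 79.6, 77.1 and 66.8 CPM in the senescent libraries 1 to 3. Every senescent library was below every control library. The means were 134 ± 18.3 CPM and 74.5 ± 6.78 CPM (SD, n = 3 each), and Jag1 fell by 0.83 on the log2 scale (95% interval −1.11 to −0.56, SE 0.12, limma adjusted p = 0.00138). The reads behind it numbered 2970 to 7857 reads per library.

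The Delta-like ligand Dll1 was close to the limit of detection. It had 2, 4 and 9 reads in the control libraries 1 to 3 and 37, 17 and 12 reads in the senescent libraries 1 to 3, or 0.0446, 0.0761 and 0.162 CPM and 0.735, 0.284 and 0.270 CPM. All senescent libraries were above all control libraries, and only senescent replicate 1 reached 0.5 CPM. Over the pooled reads, 15 in control and 66 in senescent FAPs, the ratio was 4.36 with an exact 95% interval of 2.46 to 8.22 that covers counting error only. When no filter was applied, limma gave Dll1 a log2 fold change of 0.62 (adjusted p = 0.0408), and edgeR's quasi-likelihood test on the reads of all listed genes gave 2.13 (adjusted p = 0.0288). The size of the change thus differed between these scales.

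The other canonical ligands outside the 10 genes were similarly sparse in control FAPs. Jag2, the second Jagged ligand, had 3, 1 and 7 reads in control replicates 1 to 3 and 85, 98 and 61 reads in senescent replicates 1 to 3. In CPM these are 0.0670, 0.0190 and 0.126 against 1.69, 1.64 and 1.37. The pooled ratio was 22.0 (exact 95% interval 12.1 to 44.6, counting error only), and the log2(CPM + 0.5) change was 1.86 (limma adjusted p = 2.52e-04). Jag2 reached 0.5 CPM only in senescent libraries, so it passed the filter through the group in which it was high. Dll4, the endothelial Delta-like ligand, had 1, 4 and 4 reads in control and 20, 32 and 12 reads in senescent libraries, a pooled ratio of 7.04 (exact 95% interval 3.49 to 16.1), and it did not pass the filter. Dll3 had no line in the table.

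Per length, Jag1 still accounted for nearly all canonical ligand transcripts. Its share of the summed ligand CPM per kb was 99.8%, 99.8% and 99.6% in control replicates and 95.7%, 96.2% and 96.6% in senescent replicates 1, 2 and 3. Jag2 made up 0.0595 ± 0.0431% of the sum in control and 2.22 ± 0.0341% in senescent FAPs (SD, n = 3 each). The two-sided exact permutation test gave p = 0.1 for both, the smallest that is possible here. The summed ligand level was 23.9 ± 3.27 CPM per kb in control and 13.8 ± 1.32 CPM per kb in senescent FAPs (SD, n = 3 each), and that of the 4 receptors was 33.9 ± 0.413 and 42.8 ± 2.70 CPM per kb (SD, n = 3 each; exact permutation p = 0.1 for each sum).

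Hes1, the target gene with by far the highest level, lies on the plus strand of chromosome 16 from 30064384 to 30067796. Hes1 had 72.9, 64.3 and 69.8 CPM in the control libraries 1 to 3 and 50.3, 50.7 and 49.9 CPM in the senescent libraries 1 to 3. The senescent libraries lay within 1 CPM of each other and below all control libraries. The means were 69.0 ± 4.34 CPM and 50.3 ± 0.390 CPM (SD, n = 3 each). Hes1 fell by 0.45 on the log2 scale (95% interval −0.62 to −0.28, SE 0.07, limma adjusted p = 0.00252), with 2219 to 3887 reads per library.

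The 3 HEY genes were low in both groups and did not pass the test. Hey1 had 1.36, 1.54 and 1.49 CPM in control libraries and 1.89, 2.09 and 1.35 CPM in senescent libraries, a log2 fold change of 0.20 (95% interval −0.20 to 0.60, limma adjusted p = 0.375). Senescent replicate 3 lay below all control libraries and the other two above them. Hey2 had 1.03, 0.437 and 0.556 CPM in control libraries and 0.437, 0.535 and 0.383 CPM in senescent libraries. Its log2 fold change was −0.27 (95% interval −0.76 to 0.22, limma adjusted p = 0.321), and control replicate 1 alone stood out. Heyl had 0.446, 1.05 and 0.449 CPM in control libraries and 1.21, 0.736 and 0.428 CPM in senescent libraries, with a log2 fold change of 0.17 (95% interval −0.50 to 0.83, limma adjusted p = 0.660). With 17 to 125 reads of these genes per library, the intervals of Hey2 and Heyl include a fall of the size measured for Hes1, and those of Hey1 and Heyl a rise of that size. These intervals are on the log2(CPM + 0.5) scale, which understates changes of the low HEY genes more than that of Hes1. Hes6, a relative of Hes1 that is not a member of the 10, had 10.7, 7.47 and 8.36 CPM in control libraries and 7.41, 7.80 and 8.80 CPM in senescent libraries (log2 fold change −0.13, limma adjusted p = 0.538). Hes2, Hes3, Hes5 and Hes7 had no line in the table.

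Per length, the order of the members in control FAPs was Hes1 (47.0 ± 2.96 CPM per kb), Hey1 (0.604 ± 0.0381), Hey2 (0.264 ± 0.122) and Heyl (0.143 ± 0.0761; SD, n = 3 each). In senescent FAPs it was Hes1 (34.3 ± 0.266), Hey1 (0.733 ± 0.158), Hey2 (0.177 ± 0.0304) and Heyl (0.174 ± 0.0870; SD, n = 3 each). Hes6 lay between Hes1 and Hey1, with 6.63 ± 1.26 CPM per kb in control and 5.99 ± 0.538 in senescent FAPs (SD, n = 3 each). Hey2 and Heyl overlapped in both groups. Of the summed HES and HEY level, Hes6 included, Hes1 made up 86.1 ± 1.35% in control and 82.9 ± 0.687% in senescent FAPs. Hes6 made up 12.1 ± 1.40% and 14.5 ± 1.26%, and Hey1 1.11 ± 0.152% and 1.77 ± 0.380% (SD, n = 3 each). Two-sided exact permutation tests gave p = 0.1 for Hes1 and Hey1 and p = 0.2 for Hes6. A share also moves when another gene of the sum changes, and the CPM of Hey1 overlapped between groups.

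Promoter windows from RefSeq (GRCm38.p6, 250 bases before to 50 after a start site) were available for 7 of the 10 genes, all but Hes1, Hey1 and Heyl. They were searched on both strands for TGGGAA, the core recognized by RBPJ, and for CACNAG, the N-box bound by HES proteins. No match of one motif overlapped a match of the other in these windows. TGGGAA was found in 25.6% of all 32851 windows and in 1 of the 7 genes, Hey2. CACNAG was found in 42.5% of all windows and in 4 of the 7 genes, Notch1, Notch2, Notch3 and Dll1. The 250 bases before the start are shown for the receptor that rose, the ligand that fell and Hey2. Of the HES and HEY members only Hey2 had a window, so Hes1 could not be searched. The sequences run 5′ to 3′ on the gene's strand, with matches in capitals. They are chr17:32166891-32167140 for Notch3, chr2:137116521-137116770 for Jag1 and chr10:30842784-30843033 for Hey2, all on the minus strand.
Notch3: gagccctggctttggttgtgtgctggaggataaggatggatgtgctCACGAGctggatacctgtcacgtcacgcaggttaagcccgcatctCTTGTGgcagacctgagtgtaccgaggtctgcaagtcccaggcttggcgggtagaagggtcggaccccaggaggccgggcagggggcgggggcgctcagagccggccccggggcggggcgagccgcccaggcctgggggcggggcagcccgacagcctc
Jag1: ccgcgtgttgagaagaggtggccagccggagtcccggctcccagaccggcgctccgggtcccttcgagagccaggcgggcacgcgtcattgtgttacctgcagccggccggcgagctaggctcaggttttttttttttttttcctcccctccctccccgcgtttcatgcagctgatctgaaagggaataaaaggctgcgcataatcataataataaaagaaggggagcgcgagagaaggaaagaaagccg
Hey2: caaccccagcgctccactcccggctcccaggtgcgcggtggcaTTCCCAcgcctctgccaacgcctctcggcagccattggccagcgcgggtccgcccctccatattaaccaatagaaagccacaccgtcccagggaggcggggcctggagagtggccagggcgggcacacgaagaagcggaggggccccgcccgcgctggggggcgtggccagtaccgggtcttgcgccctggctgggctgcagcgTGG

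In Notch3 the capitals mark 2 N-box matches, 1 per orientation, from −204 to −199 and from −159 to −154 counted from the start site. The Jag1 window held neither motif. In Hey2 the capitals mark the RBPJ core in reverse orientation from −207 to −202 and the first bases of another match that runs across the start site. The GC content of the printed bases was 68.8% in Notch3, 57.2% in Jag1 and 71.6% in Hey2. A match describes the letters only, and binding was not measured.

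Of the other genes of the pathway, 75 of 85 listed had a line in the table and 73 were tested. Among these, 18 were called higher and 21 lower, 53.4% in all, beside 46.1% of all genes tested. Their median log2 fold change was −0.13. The 18 include Jag2 and Egfl6, which reached 0.5 CPM only in senescent libraries and so passed the filter through the group in which they were high. In the lists by role that follow, the helix-loop-helix relatives aside, the share called was 45.5% to 71.4%, each list holding 6 to 14 tested genes. Without senescent replicate 2 the counts were 6 higher and 9 lower, without senescent replicate 3 they were 7 and 13, and without control replicate 3 they were 14 and 11. In the same order, all genes called higher and lower numbered 2130 and 2416, 2266 and 2640, and 2464 and 2705, of 14776 tested. In each of these settings the share of the other pathway genes that were called was below that of all genes tested.

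**Figure D4:**
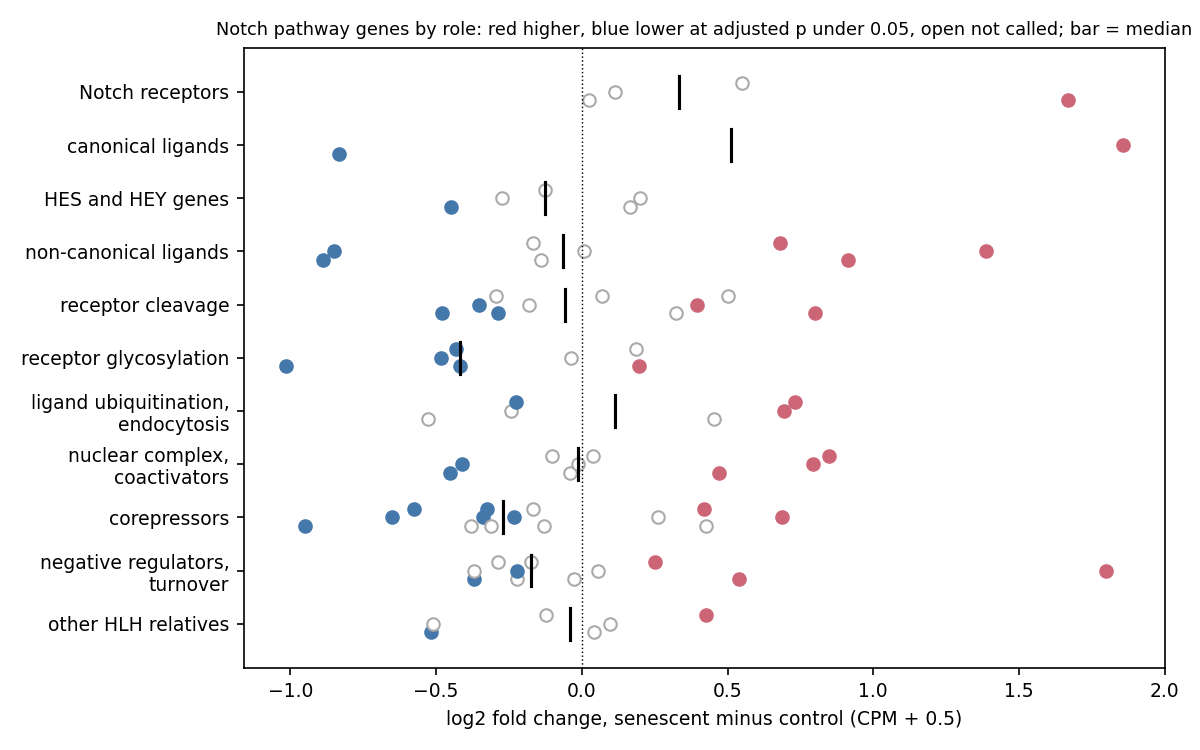
Log2 fold changes (horizontal axis, senescent minus control) of the tested pathway genes in 11 lists by role, members included, with red points for genes called higher, blue for genes called lower, open points for genes not called and a bar for the median. Dtx3l, Jag2 and Notch3 lie farthest to the right and Lfng farthest to the left.

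RBPJ, the DNA-binding partner of all Notch receptors, did not pass the test. Rbpj had 64.7, 56.0 and 64.6 CPM in control libraries and 60.8, 63.8 and 65.3 CPM in senescent libraries (log2 fold change 0.04, limma adjusted p = 0.736). The Mastermind coactivators did not move as a unit. Maml2 rose from 22.9 ± 3.80 to 41.2 ± 1.77 CPM and Maml3 from 4.52 ± 1.09 to 8.07 ± 0.537 CPM (SD, n = 3 each), with log2 fold changes of 0.85 and 0.79 (limma adjusted p = 0.00149 and 0.00851), while Maml1 fell by 0.45 (limma adjusted p = 0.0448) with overlapping groups. Of the 9 tested genes of the nuclear complex and its coactivators, 3 were called higher and 2 lower. The share called was 55.6%, beside 46.1% of all genes tested.

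Corepressors hold RBPJ targets silent when no intracellular domain is bound. Of 14 tested, 2 were called higher and 6 lower, with a median log2 fold change of −0.27. The share called, 57.1%, stands beside 46.1% of all genes tested. The C-terminal binding protein genes Ctbp1 and Ctbp2 fell by 0.57 and 0.65 (limma adjusted p = 0.00142 and 5.90e-04). The Groucho-family gene Tle4 went the other way, with a log2 fold change of 0.69 (limma adjusted p = 0.0303).

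Receptor glycosylation genes set how a receptor responds to each class of ligand. Of 7 tested, 1 was called higher and 4 lower, 71.4% beside 46.1% of all genes tested. Lfng, whose Fringe enzyme favors signaling by Delta-like over Jagged ligands, had 21.6, 20.4 and 19.3 CPM in control libraries and 11.1, 10.1 and 8.48 CPM in senescent libraries. It fell by 1.02 on the log2 scale (SE 0.12, limma adjusted p = 7.98e-04). The others called lower were Kdelc1, Kdelc2 and Eogt, between −0.48 and −0.42, and Pofut1, the O-fucosyltransferase, was called higher at 0.20.

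Receptor cleavage genes split, with 2 called higher and 3 lower of 10 tested, 50% beside 46.1% of all genes tested. Furin, Adam17 and Aph1a were the genes called lower, by 0.48, 0.29 and 0.35 on the log2 scale. Adam10, the protease of the ligand-induced cut, had 113, 141 and 130 CPM in control libraries and 89.0, 109 and 115 CPM in senescent libraries, with overlapping groups. Its log2 fold change of −0.30 missed the threshold (limma adjusted p = 0.0797) and passed it with the replicate number as a block (limma adjusted p = 0.0149). Psenen (0.39) and Aph1c (0.80) were called higher. Aph1c had 0.507 CPM in control and 1.25 CPM in senescent FAPs, and counting could have split its reads with its close paralog Aph1b.

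The non-canonical ligands held some of the larger changes. Of 8 tested, 3 were called higher and 2 lower, 62.5% beside 46.1% of all genes tested. Dlk1, an inhibitor of adipogenesis that lacks the domain for activating Notch, had 30.5 ± 4.11 CPM in control and 16.8 ± 5.70 CPM in senescent FAPs (SD, n = 3 each) without overlap and fell by 0.89 on the log2 scale (limma adjusted p = 0.0146). The microfibril gene Mfap2 fell by 0.85 (limma adjusted p = 0.0173), whereas its relative Mfap5, at 599 CPM in control and 596 CPM in senescent FAPs, had a log2 fold change of 0.01. The neural adhesion gene Cntn1 rose by 1.39 from 0.754 CPM, Dner by 0.68 from 0.872 CPM and Egfl6 by 0.91 from 0.145 CPM (limma adjusted p = 0.00105, 0.0413 and 0.0194). Egfl6, like Jag2, reached 0.5 CPM only in senescent libraries.

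Genes that ubiquitinate or internalize ligands had 2 called higher and 1 lower of 6 tested, 50% beside 46.1% of all genes tested. The endocytic adaptor gene Epn2 rose by 0.73 and Neurl2 by 0.69 (limma adjusted p = 0.00393 and 0.0233), and Mib1, the main ligase of Notch ligands, fell by 0.22 (limma adjusted p = 0.0375). Among 11 tested negative regulators and turnover genes, 3 were called higher and 2 lower, 45.5% beside 46.1% of all genes tested. Dtx3l, a Deltex-family ubiquitin ligase gene that is also induced by interferon, had 5.29, 5.12 and 5.31 CPM in control libraries and 18.0, 19.4 and 21.1 CPM in senescent libraries. Its log2 fold change was 1.80 (SE 0.11, limma adjusted p = 1.10e-04). Fbxw7, which marks the intracellular domain for degradation, rose by 0.54 (limma adjusted p = 0.0152), and Numb by 0.25 (limma adjusted p = 0.0269). The feedback targets Nrarp and Dtx1 had no line in the table.

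Genes with a pattern like that of Notch3 and Jag1, the members with the smallest p, were sought by Pearson's r of log2(CPM + 0.5) over the 6 libraries, as a description. The groups themselves set most of this likeness, and 501 genes had r above 0.95 with Notch3 and 613 with Jag1. The nearest to Notch3 were Synpo2 (r = 0.997, log2 fold change 0.58), Sorbs2 (0.996 and 1.03), Kctd18 (0.996 and 0.23), Trim25 (0.995 and 1.06) and Ssbp2 (0.995 and 0.56). The nearest to Jag1 were Ercc8 (r = 0.998, log2 fold change −0.52), Gm13231, Nutf2-ps1, Dusp16 and C2cd2, all at r = 0.996 or above.

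**Figure D5:**
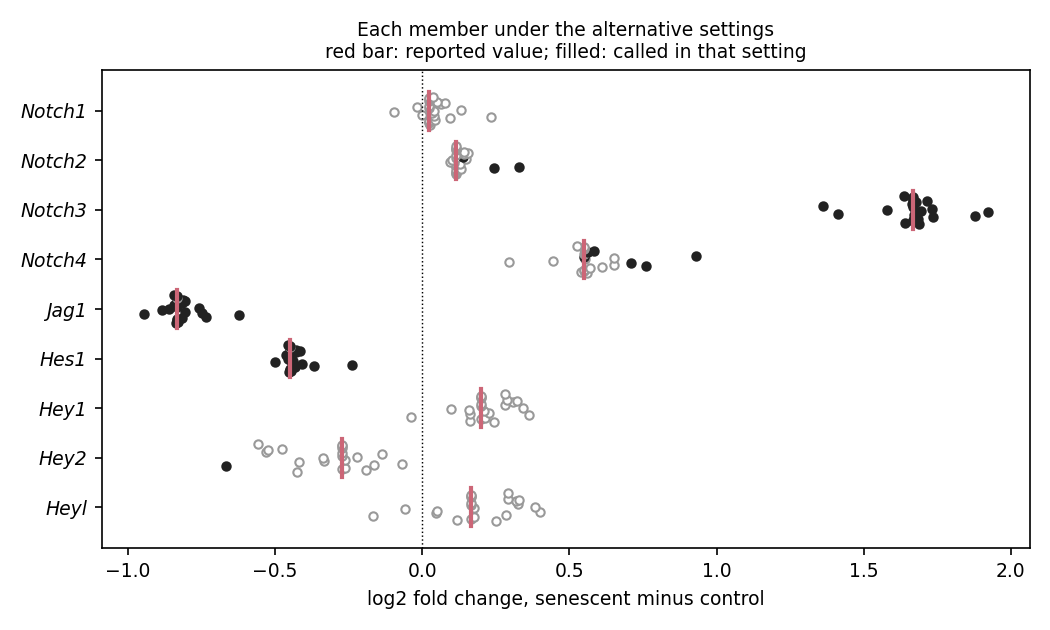
Log2 fold change of each tested gene (horizontal axis) under each alternative setting, with a red bar for the reported value and filled points where the gene was called. Notch3 stays between 1.36 and 1.92, Jag1 between −0.95 and −0.62 and Hes1 between −0.50 and −0.24, while the points of Notch1, Hey1 and Heyl fall on both sides of 0.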

How the data were processed

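The study's methods state that stranded mRNA libraries (TruSeq) were sequenced on an Illumina HiSeq. The submitters' processing notes name build mm10, edgeR 3.10 and R 3.6.0. The aligner, the counter, the use of strand and the gene filter are not given in the sources used here. The authors deposited a normalized signal, CPM of edgeR's effective library size, with replicates not pooled, and column sums ran from 919819 to 1090570. The planned unit was CPM and the same test was kept. Every deposited value was a whole multiple of 1 read (100% within a tolerance of 0.001), and scaling factors were 0.917 to 0.940 in control and 1.07 to 1.09 in senescent libraries. The line naming no gene (0.00409% to 0.00699% of reads) was left out. Chi-square per gene between replicates was 14.9 to 149, so no library was a repeat.

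A gene was tested if 3 or more libraries reached 0.5 CPM, with limma 3.58.1 (R 4.3.3, variance trend, two-sided) on log2(CPM + 0.5), which understates changes of low genes. Alternatives used other pseudocounts, filters, scalings, weights and call rules, each library left out, the replicate block, and count tests on the recovered reads (DESeq2 1.42.0, edgeR 4.0.16). After the data were seen, edgeR on all listed genes and a filter on the mean of all libraries were added. Same-numbered control and senescent libraries deviated together (correlations 0.54, 0.31 and 0.21 for numbers 1, 2 and 3, and −0.36 to 0.15 between unlike numbers). This is only a hint from the data that the numbers pair cultures. The reported test used no block, and the pairing entered only the alternatives with the replicate block. Exon lengths and positions came from GENCODE M21 (GRCm38). Fits were tested on simulated data. All 10 members are named, with pathway genes that were called with a log2 fold change of at least 0.5 in size, a few core genes of each list, the 5 genes most like each of the 2 members with the smallest p, and markers. Some pathway genes that meet this rule or belong to these lists are not reported here by name. Further genes (Mib1, Numb, Maml1, Mfap5 and the smaller changes in cleavage and glycosylation genes) were named after their values were seen. Members and lists were chosen with earlier results of these data known.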

Additional observations from a re-analysis of the deposited data

How the results depend on the processing

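Notch3, Jag1 and Hes1 kept their direction under all 23 alternatives and were called in each, with limma, edgeR or DESeq2 adjusted p up to 0.00912, 0.00842 and 0.0269, except that Jag1 and Hes1 miss a log2 fold change of 1 when that is required. The count of members called higher, 1 as reported, was 2 with no filter on low values, quantile normalization, the replicate block, DESeq2, edgeR with the replicate block or edgeR on all listed genes, and 3 with division by column totals or array weights. Notch4 was called under the block (limma adjusted p = 0.0113) and in 5 other settings, and the block changed no other member's call. It also called Adam10 and Id3 lower and gave 21 other pathway genes higher and 25 lower in place of 18 and 21. Notch2 was called higher with quantile normalization, division by column totals and array weights (limma adjusted p = 0.0248, 0.00760 and 0.0328), and Hey2 was called lower with quantile normalization (−0.67, limma adjusted p = 0.0378), which made 3 members lower in place of 2. The directions of Notch1, Hey1 and Heyl were not stable. Notch1 was −0.016 with array weights, Hey1 was −0.038 and Heyl −0.17 with quantile normalization, and with each library left out Notch1 ranged from −0.10 to 0.13 and Heyl from −0.059 to 0.40, both negative without senescent replicate 1. Division by column totals shifted the median of all genes from −0.03 to 0.17 and the share of called genes that were higher from 47.3% to 72.1%, with 4992 higher and 1929 lower in place of 3218 and 3592, and only 6 other pathway genes lower. With that division Rbpj was called higher (log2 fold change 0.25, limma adjusted p = 0.0362). The change of Rbpj was −0.031 without control replicate 2 and −0.010 with array weights, not called in either. An adjusted p under 0.01 gave 1840 higher and 2118 lower genes, and 6 and 8 other pathway genes. An unadjusted p under 0.01 with a log2 fold change beyond 1 gave 1024 and 576 genes, 3 and 1 other pathway genes and 0 members lower. With each library left out in turn, members called higher were 1 to 2 and lower 2 to 2, other pathway genes higher 6 to 17 and lower 9 to 22, and all genes higher 2130 to 3405 and lower 2416 to 3875. The cause was not tested. Depth limits Dll1, Hey2 and Heyl most, with 2 to 61 reads per library.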

Other observations

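Helix-loop-helix genes related to HES and HEY but outside the canonical pathway were also measured. Of the 6 tested, 1 was called higher and 1 lower, a share of 33.3% beside 46.1% of all genes tested. Bhlhe40, a repressor that answers to many stress and clock signals, had 259, 248 and 202 CPM in control replicates 1, 2 and 3 and 148, 177 and 168 CPM in senescent replicates 1, 2 and 3. It fell by 0.52 on the log2 scale (limma adjusted p = 0.00858), and its groups did not overlap. Its close relative Bhlhe41 had 7.05 CPM in control and 9.62 CPM in senescent FAPs, and its log2 fold change was 0.43 (limma adjusted p = 0.0295).

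The Id genes, whose products bind helix-loop-helix proteins without contacting DNA and which answer to BMP signaling, did not pass the test without a block. Id1 had 37.2 CPM in control and 37.7 CPM in senescent FAPs, and Id3, the most abundant of them by CPM, had 409, 212 and 293 CPM in control libraries and 244, 193 and 186 CPM in senescent libraries, with overlapping groups (log2 fold change −0.51, limma SE 0.23). With the replicate number as a block Id3 passed it (limma adjusted p = 0.0130). The log2 fold change of Id2 was −0.12 and that of Id4 was 0.10.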
